A study of Mus musculus with 14 samples.

Results

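Cytokine receptors pass their signal to Janus kinases, which phosphorylate STAT proteins, and the STATs then enter the nucleus and switch on target genes. Among the first targets are Cish and the SOCS genes, whose products bind the receptor or its kinase and damp the signal, so their RNA is often read as a trace of recent cytokine input. In the spleen these STATs serve T cell fate, B cell growth and the making of blood cells. The genes described here are 4 SOCS feedback genes (Socs1, Socs2, Socs3 and Cish) and 5 STATs of cytokine receptors (Stat3, Stat4, Stat5a, Stat5b and Stat6). They were chosen by name, and their probes were found by matching the accession of each probe to RefSeq. All 9 genes were found among the 24908 genes tested, through 12 of the 31766 probes tested. Socs2, Stat3 and Stat5a had 2 probes each, and the others had 1. Every one of the 12 probes was well above background on all 14 arrays, and none was saturated.

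The RNA came from splenocytes of 7 WT and 7 Sting gt/gt mice, 1 array per mouse, 2 weeks after immunization with chicken collagen type II in complete Freund's adjuvant (CFA + CII). This immunization starts collagen-induced arthritis (CIA). The study asked which splenocyte genes differ between the genotypes after this immunization. WT mice were purchased, and the methods of the study do not name their strain. Sting gt/gt mice carry the golden ticket allele of Sting (Tmem173), made by the mutagen ENU on a C57BL/6 background. The methods of the study cite earlier work in which no STING protein was detected in these mice. Arthritis was induced at 10 to 14 weeks of age, and both groups received the same CFA + CII, so no group shows the level of these genes without immunization. The groups came from different sources, since WT mice were bought and the Sting gt/gt line was given by another laboratory, and source and genotype cannot be told apart. Red cells were lysed before RNA was taken, and whole splenocytes were used, so fewer cells of a type and less RNA per cell cannot be told apart.

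Levels are given on the log2 scale relative to the 75th percentile of the probes of the same array, which is set to 0, so a difference of 1 is a doubling of signal. The number of arrays limits the precision. Arrays of replicates 1 to 3 of each group were scanned on 1 day (scan day 1) and those of replicates 4 to 7 on another (scan day 2). On scan day 2 each slide held a single genotype, so slide and genotype cannot be told apart there. The signal moved strongly with scan day: 9673 genes (38.8% of those tested) differed between the days at an adjusted p under 0.05 with genotype in the model (limma). In the series table of log2 values that the authors deposited, the shift between scan days was smaller, with an SD across genes of 0.14 against 0.53 in the scanner values. Sting1 itself had overlapping levels, 2.85 to 3.33 in WT and 2.92 to 3.29 in Sting gt/gt (log2 fold change 0.041 ± 0.1, SE, limma adjusted p = 0.999). The golden ticket allele is a single base change, so this signal does not check the labels.

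The palindrome TTCNNNGAA, where N is any base, is a motif that STAT dimers can bind. Motifs with another number of bases between TTC and GAA were not searched. RefSeq promoter windows of build GRCm38.p6, each running from 250 bases before a gene's start to 50 after it, were listed for 8 of the 9 genes in 11 windows. Socs2 had no entry. The motif, which reads the same on both strands, was found in the windows of 2 genes, Cish and Socs3. Of all 32851 promoter windows, 2726 (8.3%) held it at least once and 150 (0.457%) held it 2 or more times. Both windows are shown up to 30 bases after the start, because they hold the motif, which is in capitals. The Cish window is chr9:107296409-107296688 on the plus strand, and the Socs3 window is chr11:117969337-117969616 on the minus strand.
Cish: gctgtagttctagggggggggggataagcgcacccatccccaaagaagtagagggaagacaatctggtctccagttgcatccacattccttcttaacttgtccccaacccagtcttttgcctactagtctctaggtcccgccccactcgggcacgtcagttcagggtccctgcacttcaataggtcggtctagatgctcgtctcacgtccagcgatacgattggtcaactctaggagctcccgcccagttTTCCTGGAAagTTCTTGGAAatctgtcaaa
Socs3: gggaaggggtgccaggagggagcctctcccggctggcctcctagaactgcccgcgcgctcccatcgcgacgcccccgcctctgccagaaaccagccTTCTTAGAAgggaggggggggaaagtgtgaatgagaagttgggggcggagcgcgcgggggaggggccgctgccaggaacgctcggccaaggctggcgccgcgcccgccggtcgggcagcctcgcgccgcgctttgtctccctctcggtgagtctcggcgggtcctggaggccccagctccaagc
In Cish the motifs TTCCTGGAA and TTCTTGGAA began at bases 1 and 12 counted from the start of the gene. In Socs3 the motif TTCTTAGAA began at base -154, that is, before the start. A match of letters is a description and does not show binding.

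None of the 9 genes passed the test between the genotypes over all 14 arrays. In this comparison 882 of 24908 genes (3.54%) passed an unadjusted p under 0.05 by limma, 477 higher and 405 lower in Sting gt/gt, and 1 gene passed after Benjamini-Hochberg adjustment. Of the 9 genes, 0 passed the unadjusted threshold, and each had an adjusted p of 0.999. Sting gt/gt means were higher for 3 genes and lower for 6, with a median log2 fold change of -0.013 against 0.023 over all genes tested. The ranges of WT and Sting gt/gt mice overlapped for all 9 genes, while 12 of 24897 genes (0.0482%) had ranges that did not overlap. The 9 genes had a median absolute log2 fold change of 0.094 against 0.11 over all genes. With array weights and an intensity trend in limma, 4419 genes (17.7%) passed the unadjusted threshold, and 2 of the 9 genes did, Socs2 (-0.26, limma adjusted p = 0.259) and Stat5b (0.2, limma adjusted p = 0.266).

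**Figure D1:**
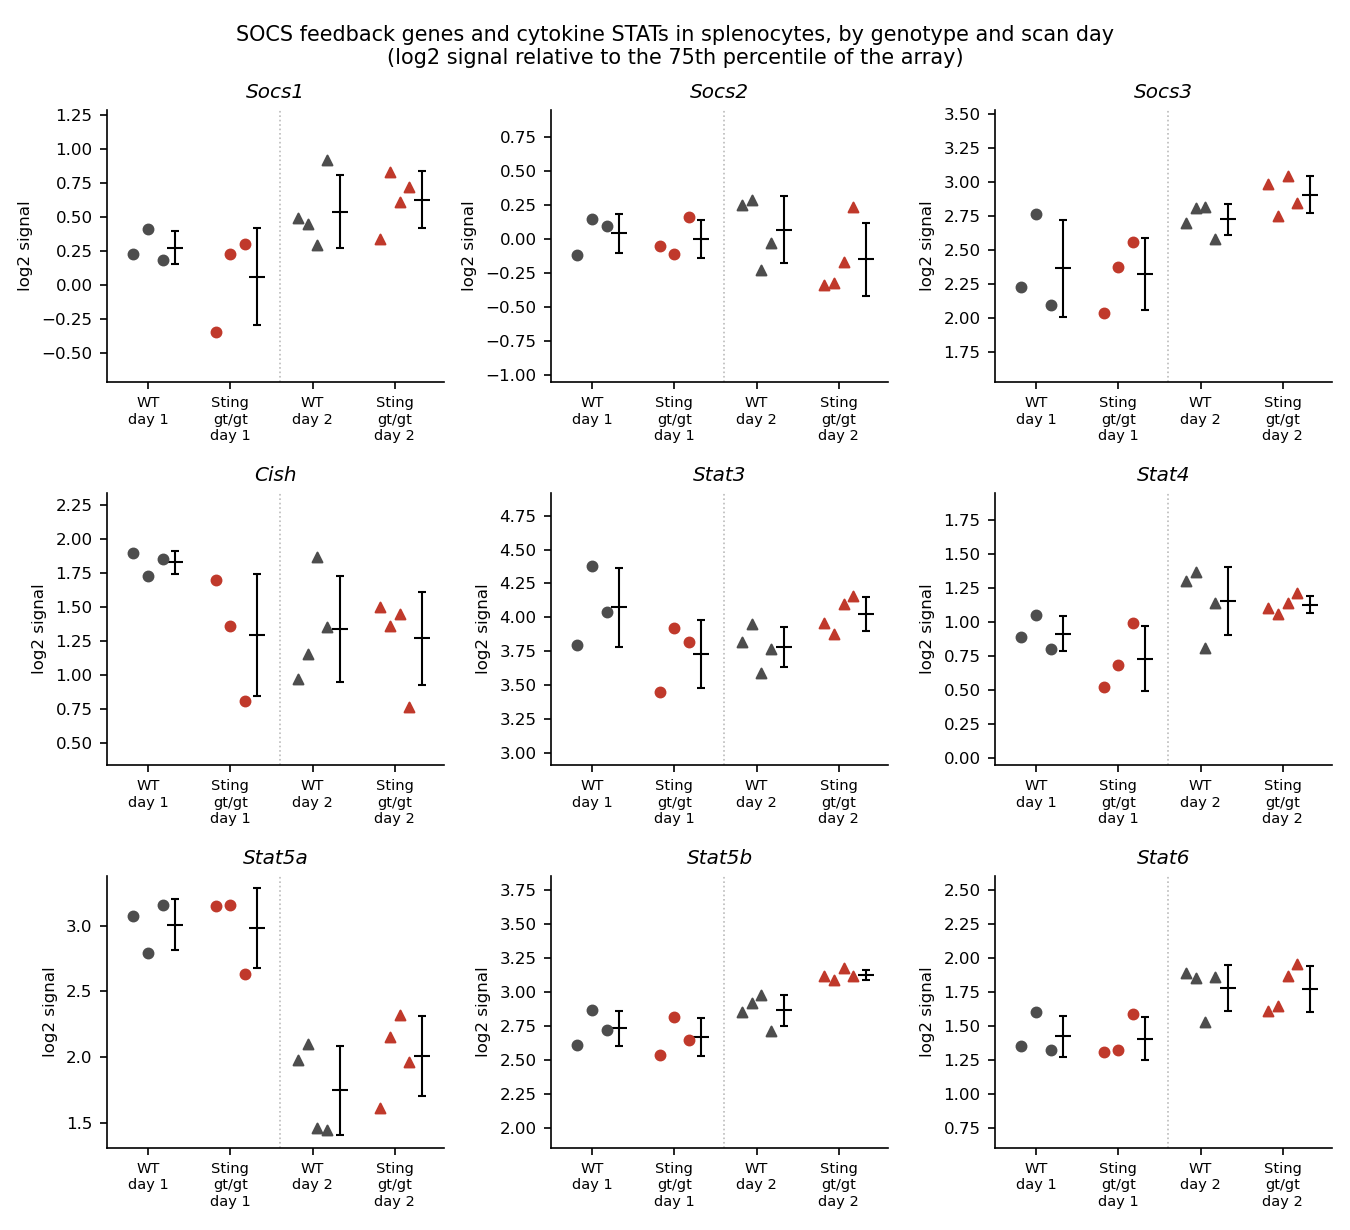
Log2 signal of the 9 genes in splenocytes of each mouse, relative to the 75th percentile of the array, by genotype (grey, WT; red, Sting gt/gt) and scan day (circles, day 1; triangles, day 2), with the mean and SD of each group beside the points. Stat5a lies between 2.63 and 3.16 on scan day 1 and between 1.45 and 2.32 on scan day 2. Within a scan day the ranges of the genotypes overlap in every panel, except for Cish on scan day 1 and Stat5b on scan day 2.

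Cish, the feedback gene most closely tied to STAT5, had a log2 fold change further from 0 than the other 8 genes over all 14 arrays. This was not so with array weights (-0.081), nor with slide as a fixed block, where Stat3, Socs1 and Stat4 lay further from 0. Nor was it so without WT replicate 1, WT replicate 3 or Sting gt/gt replicate 7, where Stat5a lay further from 0. Without Sting gt/gt replicate 7, Socs2 (-0.2) also lay further from 0 than Cish (-0.18). The Cish level ran from 0.97 to 1.9 in WT mice (median 1.73), against 0.76 to 1.7 (median 1.36) in Sting gt/gt mice. No Sting gt/gt mouse was above the WT median, and 4 WT mice were above the highest Sting gt/gt mouse. The log2 fold change was -0.27 ± 0.19 (SE; limma p = 0.176, adjusted p = 0.999; two-sided exact permutation p = 0.196 over 3432 arrangements). Its 95% interval ran from -0.67 to 0.13, or 0.63-fold to 1.1-fold.

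Socs1, which inhibits Janus kinases and restrains interferon and STAT signals, ranged from 0.18 to 0.92 in WT mice (median 0.41), against -0.35 to 0.83 (median 0.34) in Sting gt/gt mice. The lowest value was that of Sting gt/gt replicate 1 and the highest that of WT replicate 7. The log2 fold change was -0.042 ± 0.17 (SE; exact permutation p = 0.829), with a 95% interval from -0.4 to 0.32.

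Socs2, known as the brake on growth hormone receptor signalling, ranged from -0.23 to 0.29 in WT mice (median 0.1), against -0.34 to 0.24 (median -0.11) in Sting gt/gt mice. Its log2 fold change was -0.14 ± 0.12 (SE; exact permutation p = 0.211; 95% interval -0.4 to 0.11). The dimmer Socs2 probe differed by -0.092 ± 0.14 (SE; exact permutation p = 0.509), the same direction. Both probes read the same transcript accession, and their signals correlated across arrays at 0.61 on scan day 1 (6 arrays) and 0.85 on scan day 2 (8 arrays).

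Socs3, which blocks receptors of the interleukin-6 family and so limits STAT3, ranged from 2.1 to 2.82 in WT mice (median 2.7), against 2.04 to 3.05 (median 2.75) in Sting gt/gt mice. The 3 highest values were of Sting gt/gt mice and so was the lowest. The log2 fold change was 0.09 ± 0.17 (SE; exact permutation p = 0.614; 95% interval -0.27 to 0.45).

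Stat3, the STAT of IL-6 and IL-10 receptors, ranged from 3.59 to 4.38 in WT mice (median 3.82), against 3.45 to 4.16 (median 3.92) in Sting gt/gt mice. The group means were 3.91 ± 0.25 and 3.9 ± 0.23 (SD, n = 7 each), and the log2 fold change was -0.0059 ± 0.13 (SE; exact permutation p = 0.964). Its 95% interval ran from 0.818-fold to 1.21-fold. With slide in the model the value was -0.18 (random block) and -0.41 (fixed block, which rests on 5 arrays of scan day 1), and neither passed the unadjusted threshold. The other Stat3 probe carries the accession of another transcript of the gene. It differed by 0.041 ± 0.13 (SE; exact permutation p = 0.754), and it followed the brighter probe only loosely, with a correlation of 0.13 on scan day 1 and 0.26 on scan day 2.

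Stat4, which carries the IL-12 signal in T and NK cells, ranged from 0.8 to 1.37 in WT mice (median 1.05), against 0.52 to 1.21 (median 1.06) in Sting gt/gt mice. Its log2 fold change was -0.094 ± 0.13 (SE; exact permutation p = 0.485; 95% interval -0.38 to 0.19). Stat6, which carries the IL-4 and IL-13 signal, ranged from 1.32 to 1.89 in WT mice (median 1.6), against 1.31 to 1.96 (median 1.61) in Sting gt/gt mice. Its log2 fold change was -0.013 ± 0.13 (SE; exact permutation p = 0.962; 95% interval -0.3 to 0.27). The groups overlapped in both genes, and for Stat4 2 Sting gt/gt mice were below all WT mice and 2 WT mice above all Sting gt/gt mice.

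Stat5a and Stat5b are close relatives that serve IL-2, IL-7, GM-CSF and erythropoietin receptors. With Stat3 they form a row of 3 neighbouring genes on mouse chromosome 11, in the order Stat5b, Stat5a, Stat3. Stat5b ranged from 2.61 to 2.98 in WT mice (median 2.85), against 2.54 to 3.18 (median 3.09) in Sting gt/gt mice. The 4 highest values were all of Sting gt/gt mice, and so was the lowest. The log2 fold change was 0.12 ± 0.12 (SE; exact permutation p = 0.278; 95% interval -0.13 to 0.37). Stat5a had the widest spread of the 9 genes, from 1.45 to 3.16 in WT mice (median 2.1), against 1.61 to 3.16 (median 2.32) in Sting gt/gt mice, with a log2 fold change of 0.14 ± 0.32 (SE; exact permutation p = 0.686). Its 95% interval reached from 0.687-fold to 1.77-fold, the widest among the 9 genes in this fit without scan day. With scan day in the fit the SE of Stat5a was 0.15, against 0.18 for Cish. Whether the Stat5a and Stat5b probes also bind RNA of the other gene was not tested.

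Most of the Stat5a spread lay between the scan days. On scan day 1 its brighter probe was at 3.07, 2.79 and 3.16 in WT and 3.15, 3.16 and 2.63 in Sting gt/gt mice. On scan day 2 it was at 1.98, 2.1, 1.46 and 1.45 in WT and 1.61, 2.15, 2.32 and 1.96 in Sting gt/gt mice. The days did not overlap, and the difference of scan day 2 minus scan day 1 was -1.11 with genotype in the model (limma adjusted p = 5.93e-05). The dimmer Stat5a probe, with the same accession, showed no such gap, with a mean of 1.82 on scan day 1 and 1.92 on scan day 2. In the series table the brighter probe no longer fell between the days either (11.02 and 11.22). The scan-day difference passed an adjusted p under 0.05 for 6 of the 9 genes, against 38.8% of all genes. Besides Stat5a these were Socs1 (0.41 higher on scan day 2), Socs3 (0.47), Stat4 (0.32), Stat5b (0.29) and Stat6 (0.36). In the series table these 5 differences were 0.15, 0.033, 0.1, 0.019 and 0.05.

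**Figure D2:**
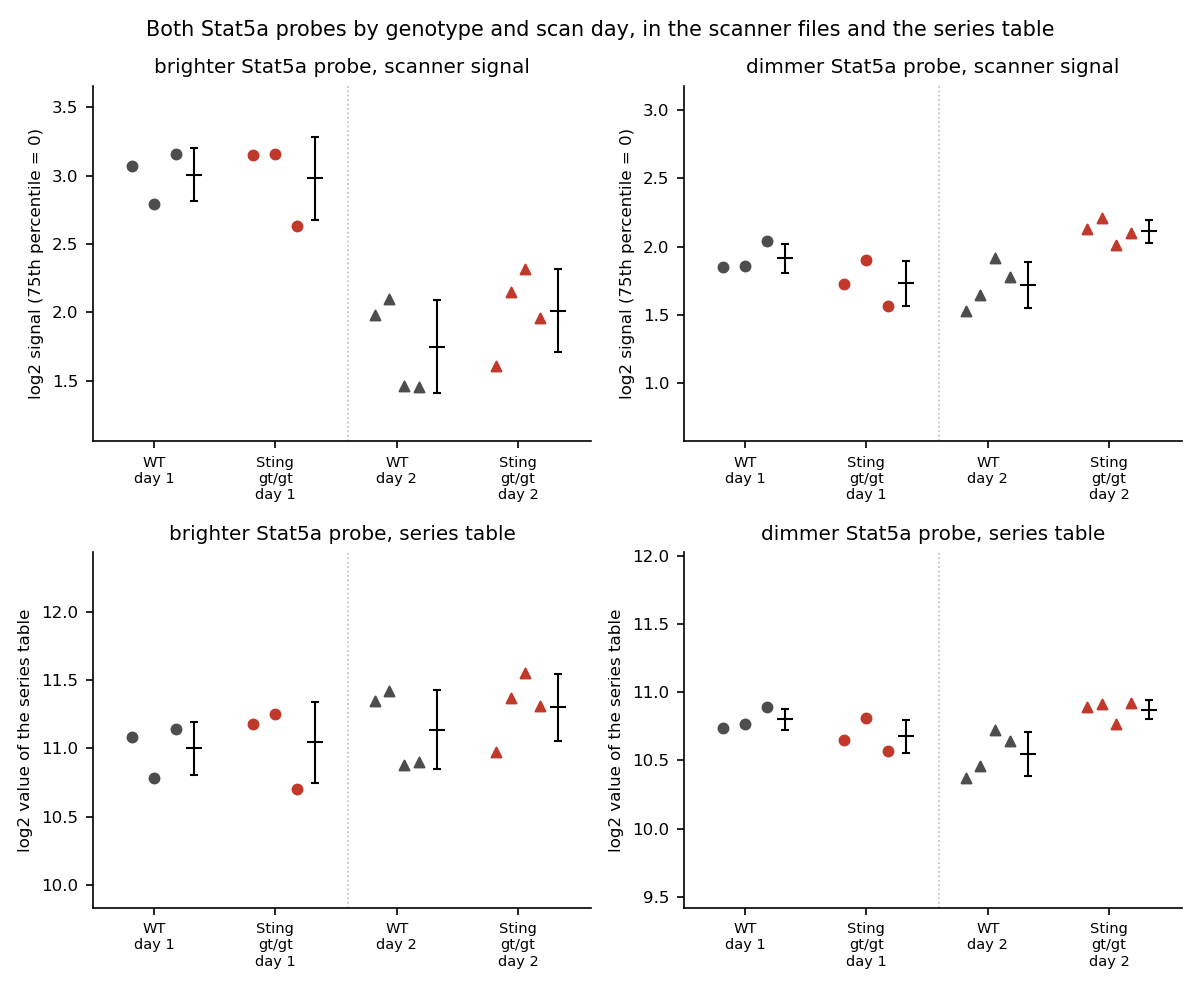
Log2 values of both Stat5a probes by genotype and scan day, from the scanner files (top, 75th percentile of the array set to 0) and from the series table (bottom), with the mean and SD of each group; every panel spans the same range of log2 units. The brighter probe in the scanner files has a mean of 2.99 on scan day 1 and 1.88 on scan day 2, while the other 3 panels show means that differ by at most 0.19 between the days.

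When the fit also held scan day, 1803 genes (7.24%) were under the unadjusted threshold, and again 0 of the 9 genes were. Cish had a log2 fold change of -0.27 ± 0.18 (SE, limma adjusted p = 0.701) and Stat5b of 0.12 ± 0.09 (SE, limma adjusted p = 0.708) in that fit. The series table gave 1928 genes (7.74%) and 0 of the 9. There Cish was 10.43 ± 0.36 in WT and 10.13 ± 0.35 in Sting gt/gt mice (SD, n = 7 each), a difference of -0.3 (exact permutation p = 0.136). Stat3 in the same table was 12.71 ± 0.25 and 12.7 ± 0.25 (SD, n = 7 each).

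On scan day 1 alone (3 WT and 3 Sting gt/gt mice), the unadjusted threshold was passed by 939 genes (3.77%) and by 0 of the 9 genes. All 9 log2 fold changes were below 0, as were 49.4% over all genes, with a median of -0.066 against 0.0027. In the series table and after quantile normalization 6 of the 9 were below 0, with Socs3, Stat5a and Stat6 above it, and leaving out 1 array turned the sign of Socs2, Socs3, Stat5a, Stat5b or Stat6. Cish was at 1.9, 1.73 and 1.85 in WT and at 1.7, 1.36 and 0.81 in Sting gt/gt mice. These groups did not overlap, as was so for 2248 of 24906 genes (9.03%) on that day. Its log2 fold change was -0.53 ± 0.23 (SE, limma p = 0.0519, adjusted p = 1.0), and the exact permutation p was 0.1, the smallest that 3 mice against 3 allow. The Cish difference passed the unadjusted threshold without Sting gt/gt replicate 1 (-0.74), without scaling between arrays (-0.59), with arrays centred on their median (-0.6), with normexp background correction (-0.54) and over probes above background on all 14 arrays (-0.53). It missed the threshold in the other 10 alternative settings, of which leaving out Sting gt/gt replicate 3 brought it to -0.29.

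On scan day 2 alone (4 WT and 4 Sting gt/gt mice), the same threshold was passed by 5911 genes (23.7%) and by 1 of the 9 genes, Stat5b. Its level was 2.85, 2.92, 2.98 and 2.71 in WT and 3.12, 3.09, 3.18 and 3.12 in Sting gt/gt mice. All 4 Sting gt/gt mice were above all 4 WT mice, a pattern that 3767 of 24899 genes (15.1%) had in one direction or the other on that day. The log2 fold change was 0.26 ± 0.1 (SE, limma p = 0.023, adjusted p = 0.148; exact permutation p = 0.0286, the smallest that 4 against 4 allow). The dimmer Stat5a probe had the same order, at 1.53, 1.65, 1.92 and 1.78 in WT and 2.13, 2.21, 2.01 and 2.1 in Sting gt/gt mice, a log2 fold change of 0.39 (limma adjusted p over probes = 0.0943; exact permutation p = 0.0286). Stat3 was at 3.82, 3.95, 3.59 and 3.77 in WT and 3.96, 3.88, 4.1 and 4.16 in Sting gt/gt mice. These overlapped by 1 mouse, and the log2 fold change was 0.25 ± 0.12 (SE; exact permutation p = 0.0571). Cish differed on this day by -0.068 ± 0.22 (SE; exact permutation p = 0.857). The Stat5b call was lost without WT replicate 4 (0.26), WT replicate 7 (0.21) or Sting gt/gt replicate 6 (0.25), after quantile normalization (0.19), without scaling between arrays (0.2) and in the series table (0.16). A share of 1 in 9 lies below the 23.7% of all genes.

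**Figure D3:**
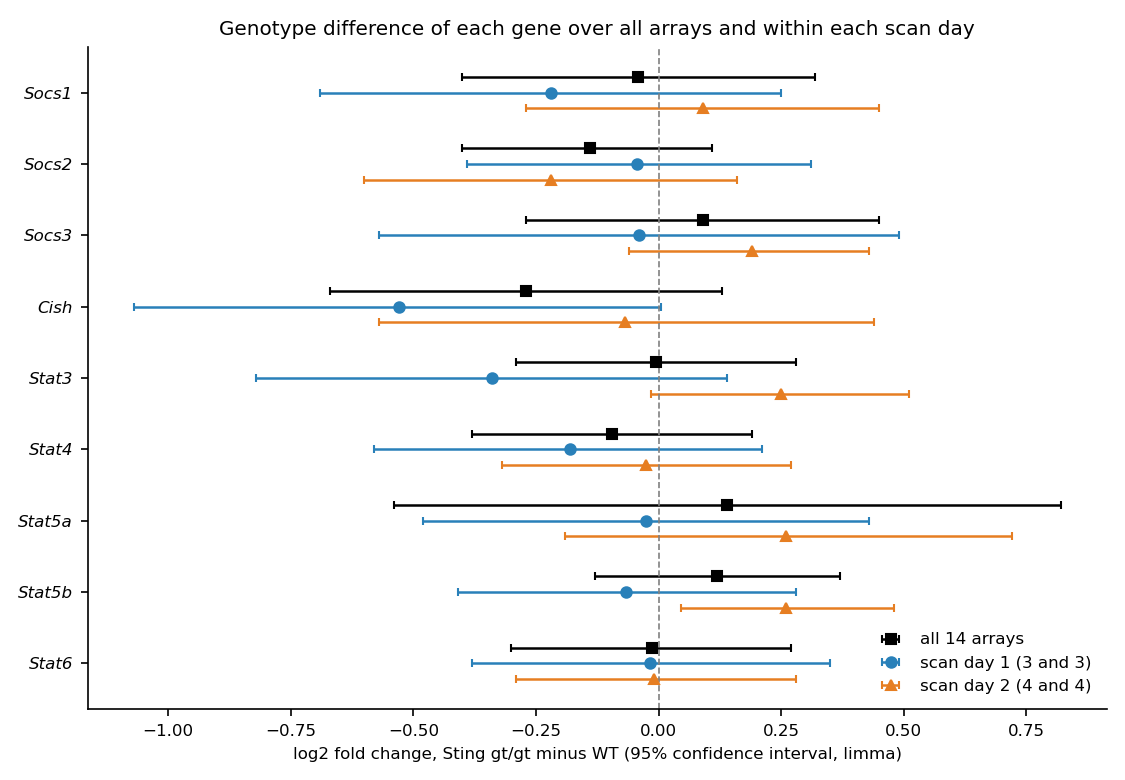
Log2 fold change of the 9 genes, Sting gt/gt minus WT, with its 95% confidence interval from limma, over all 14 arrays (black squares), on scan day 1 (blue circles, 3 mice per group) and on scan day 2 (orange triangles, 4 mice per group). Only the scan day 2 interval of Stat5b (0.045 to 0.48) leaves out 0, and the Stat3 estimates of the scan days lie on opposite sides of it (-0.34 and 0.25).

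The genotype difference itself was compared between the scan days. By the interaction of genotype and scan day, 4585 genes (18.4%) passed the unadjusted threshold, and 2 of the 9 genes did, Stat3 and Stat5b. For Stat3 the log2 fold change rose from -0.34 on scan day 1 to 0.25 on scan day 2, a difference of 0.59 ± 0.22 (SE, limma p = 0.0195, adjusted p = 0.182; exact permutation within scan days p = 0.02 over 1400 arrangements). For Stat5b it went from -0.066 to 0.26, a difference of 0.33 ± 0.15 (SE, limma p = 0.0479, adjusted p = 0.267; exact permutation p = 0.0314). The dimmer Stat5a probe behaved likewise, from -0.18 to 0.39, with a difference of 0.57 (limma adjusted p over probes = 0.115; exact permutation p = 0.00429). The brighter Stat5a probe had a difference of 0.29 (exact permutation p = 0.317) and the other Stat3 probe one of -0.12 (exact permutation p = 0.604), so the probes of a gene did not all show it. In the series table the differences were 0.42 for the brighter Stat3 probe (exact permutation p = 0.154), 0.18 for Stat5b (p = 0.286) and 0.45 for the dimmer Stat5a probe (p = 0.00571). The Stat3 call was also lost after quantile normalization (0.44), without WT replicate 2 (0.43) or Sting gt/gt replicate 1 (0.45), and when its probes were averaged (0.23). The Stat5b call held in 8 of 23 alternative settings. None of the 9 genes had an adjusted p under 0.05.

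Markers of B cells and plasma cells moved between genotypes on the same scan day. On scan day 2, 7 of 8 B cell markers passed the unadjusted threshold as lower in Sting gt/gt mice, 4 of 8 erythroid markers as lower and 4 of 6 plasma cell markers as higher, against 23.7% of all genes in either direction. The mean log2 signal of the B cell markers there was 1.87 to 2.43 in WT and 1.51 to 1.86 in Sting gt/gt mice, and that of the plasma cell markers 1.8 to 2.13 and 2.23 to 2.69. On scan day 1, 0 of the 8 B cell markers passed, with 1.42 to 1.72 in WT and 1.72 to 2.18 in Sting gt/gt mice, and 1 of the 6 plasma cell markers passed as lower, with 1.8 to 1.82 and 1.62 to 1.82. T cell markers, with 0 of 8 past the threshold on either day, had overlapping ranges. Neutrophil markers were at 6.79 to 6.95 in WT and 6.59 to 7.57 in Sting gt/gt mice on scan day 2. The part of these markers in the Stat5b, Stat5a and Stat3 differences was not tested.

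The rest of the pathway did not pass the test over all 14 arrays either. Of 100 further genes listed for it (kinases, receptors, ligands, brakes and targets), 85 were tested and 0 passed the unadjusted threshold, against 3.54% of all genes. Sting gt/gt means were higher for 50 of them and lower for 35, against 13907 and 11001 of all genes tested. All 4 Janus kinases were tested, with log2 fold changes from -0.22 to 0.2. The other SOCS genes, Socs4 to Socs7, lay between -0.09 and 0.099. Stat2, a STAT of interferon receptors, differed by -0.053. The 11 other brakes on the pathway, among them the phosphatases Ptpn1, Ptpn2, Ptpn6 and Ptpn11, lay between -0.27 and 0.11. The widest range was among the 16 receptor genes that use STAT5, from -0.28 to 0.44. Of 19 cytokines that act through these STATs, 8 were well above background on enough arrays to be tested, and Il2, Il10 and Il21 were not among them.

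None of the listed targets of the STATs passed the unadjusted threshold over all 14 arrays, as 3.54% of all genes did. On scan day 2, 2 of 10 STAT3 targets passed the unadjusted threshold as higher in Sting gt/gt mice, against 23.7% of all genes in either direction. Of 6 STAT4 targets 1 passed as higher and 1 as lower, of 10 STAT5 targets likewise, and of 7 STAT6 targets 0 passed. By the interaction, 2 STAT3 and 2 STAT5 targets passed as higher, 1 STAT4 target each way and 1 STAT6 target as lower, against 18.4% of all genes. Over all 14 arrays the median log2 fold change was 0.058 for the 10 STAT3 targets and 0.047 for 6 tested STAT4 targets. It was -0.032 for 10 STAT5 targets and 0.034 for 7 tested STAT6 targets, against 0.023 for all genes. Pim1, a kinase gene switched on by STAT3 and STAT5, differed by -0.17 ± 0.15 (SE, limma adjusted p = 0.999). Over all 14 arrays 1 gene each of the B cell and stress lists passed the unadjusted threshold, namely Ebf1 (-0.34 ± 0.14) and Hspa1b (-0.58 ± 0.25; log2 fold change ± SE by limma, adjusted p = 0.999 each), and no marker of T cells, plasma cells, NK cells, neutrophils, macrophages and monocytes, dendritic cells or megakaryocytes did.

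The feedback genes were then set against the STATs across mice, within each scan day because of the shift between the days. For 9 pairs and both days, 18 relations were computed, 10 positive and 8 negative. By Pearson's r, 1 of the 18 had an exact permutation p under 0.05 and 0 after Benjamini-Hochberg adjustment. By Spearman's rho, 3 had a p under 0.05 and 0 after adjustment. Only 3 of the 9 pairs had the same sign of r on both days.

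**Figure D4:**
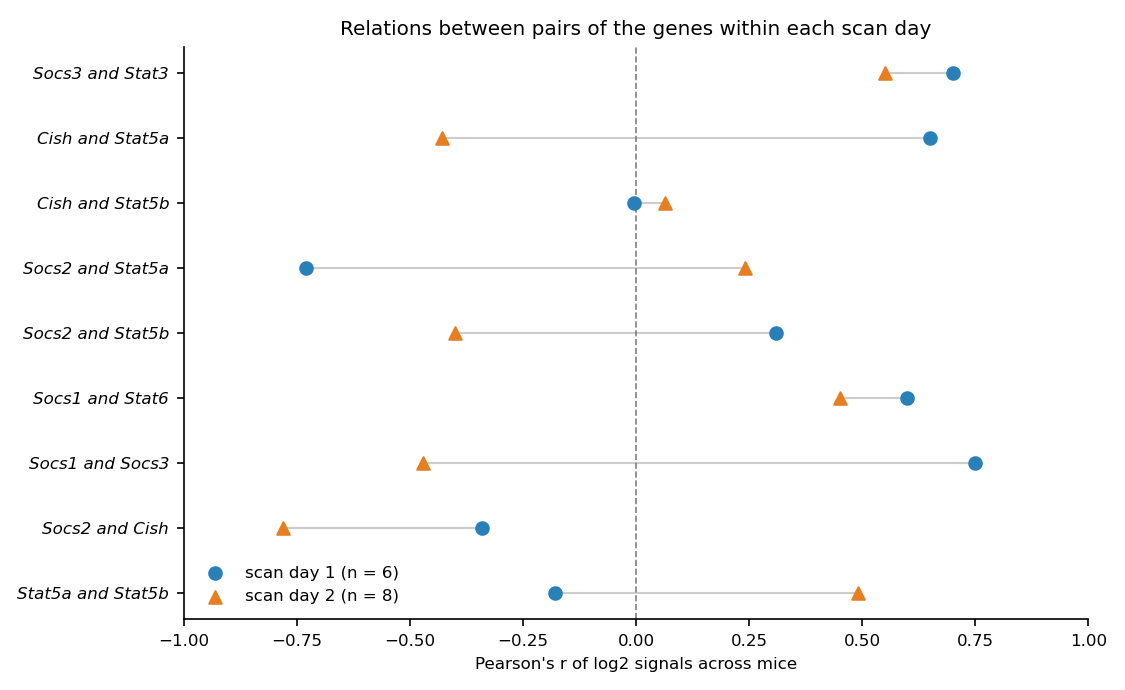
Pearson's r between the log2 signals of 9 pairs of these genes across mice, within scan day 1 (blue circles, n = 6) and scan day 2 (orange triangles, n = 8). Socs3 with Stat3 and Socs1 with Stat6 lie to the right of 0 on both days and Socs2 with Cish to the left, and the other 6 pairs change side.

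By Pearson's r the relation with a p under 0.05 was that of Socs2 and Cish. Mice of scan day 2 with more Socs2 had less Cish (r = -0.78, exact permutation p = 0.018, adjusted p = 0.323; rho = -0.79, exact permutation p = 0.0279, adjusted p = 0.168; n = 8). Without the 2 arrays farthest from the median of Cish, r was -0.87. On scan day 1 it was -0.34 (exact permutation p = 0.55, n = 6).

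Socs3 and Stat3 had a positive r on both days that missed the threshold, with r = 0.7 (exact permutation p = 0.119, adjusted p = 0.454, n = 6) and r = 0.55 (exact permutation p = 0.156, adjusted p = 0.454, n = 8). Without the 2 arrays farthest from the Stat3 median, r came to -0.59 for scan day 1 and to 0.94 for scan day 2, so the value of scan day 1 rests on those arrays. Socs1 with Stat6 had r = 0.6 and 0.45 (exact permutation p = 0.206 and 0.252, n = 6 and 8), and 0.62 and -0.35 without such arrays. By rank, Socs1 followed both Stat6 and Socs3 on scan day 1 (rho = 0.94 each, exact permutation p = 0.0167, adjusted p = 0.15, n = 6), and with Socs3 the sign turned on scan day 2 (rho = -0.43, exact permutation p = 0.299, n = 8). Cish, whose promoter window holds 2 STAT motifs, had r = 0.65 with Stat5a on scan day 1 (exact permutation p = 0.133, n = 6; -0.56 without the 2 arrays farthest from the Stat5a median) and -0.43 on scan day 2 (exact permutation p = 0.286, n = 8). With Stat5b it had r = -0.004 and 0.065 (exact permutation p = 0.994 and 0.881).

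As a description over all 14 arrays with the mean of each scan day taken out, the 9 genes were not equally alike. Stat4 and Stat6 varied together most closely (r = 0.8), followed by Socs2 with Stat6 (0.76), Socs3 with Stat5b (0.7) and Stat3 with Stat5b (0.69). Cish ran against Stat6 (-0.68) and Socs2 (-0.6). These values share their arrays, their scaling and the cell makeup of each spleen. The genotype difference was not taken out, so it is part of them, and on scan day 2 the slide is too.

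Among 14723 genes with a symbol searched in the same way, the 2 with the pattern most like Stat3 were Arhgap10 and Ncoa3 (r = 0.96 each). For Stat5b they were Polr3g and Kit (0.96 each), for Stat5a Ppp2r3d (0.94) and Aldh9a1 (0.91), for Stat4 Gja4 (0.93) and Stk10 (0.91), and for Stat6 Rhoq and Cplane1 (0.92 each). For Socs1 they were Gbp5 (0.88), an interferon-induced GTPase gene, and Dhdh (0.87). Socs2 was followed most closely by Arhgap5 (0.93) and Rbm4b (0.92), Socs3 by Gm9733 and Prkcb (0.88 each), and Cish by Mafg (0.92) and Cit (0.91). The search took the highest of 14723 values over 14 arrays.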

How the data were processed

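Splenocyte RNA of 7 WT and 7 Sting gt/gt mice was labelled with 1 dye and hybridised to 14 one-colour Agilent arrays. Per the file headers, the authors extracted the intensity of each spot with Agilent Feature Extraction 11.0.1.1, which subtracts background and leaves arrays unscaled. A table of log2 values for the whole series was deposited as well. Its normalization is not given in the sources used here, and its values correlated with the log2 intensity of the same array at 0.997 to 0.999.

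The processed intensity was log2 transformed, flagged outlier spots were dropped, spots of a probe were averaged and the 75th percentile over probes was subtracted from each array (its linear value was 403 to 550). Probes had to exceed background clearly on at least 7 of 14 arrays to be tested, and a gene was read from its brightest tested probe. Between 30781 and 34400 probes per array were above background. Probes were named by accession through a RefSeq table of a later assembly than that of the array, and 58.3% of 56605 probes had a symbol. Where no symbol was found, the identifier that came with the probe stood for the gene, so the 24908 genes tested include unnamed entries. Groups were compared with limma 3.58.1 in R 4.3.3 with no covariates, at an unadjusted p under 0.05 as in the study, with Benjamini-Hochberg adjustment beside it. Single genes were also compared by two-sided exact permutation tests (Python 3.11.15, scipy 1.17.1). Each mouse gave 1 array.

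The 9 genes and the pathway and marker lists were chosen with earlier results of these data known. Named are the 9 genes with all their probes, list genes past the threshold (at most 3 per list), the 2 genes most alike to each of the 9, and Sting1. Results of some other list genes are not reported here. Pim1 and the other pathway genes named without a call serve as examples and were chosen after their values were seen. Alternatives covered scaling, background correction, the series table, filters, probes of a gene, array weights, replicate, slide, scan day and leaving out single arrays. Scalings of the difference between scan days were added after the data were seen. The functions were tested on simulated data first.

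GEO gives both groups replicate numbers 1 to 7. Same-numbered arrays deviated together from the means of their groups (correlations of 0.16 to 0.53 across genes, over 0.1 for every pair). With scan-day means taken out the correlations were -0.41 to 0.25, the highest for replicate 1, whose 2 arrays shared a slide. What else same-numbered arrays share was not tested.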

Additional observations from a re-analysis of the deposited data

Results flagged for a closer look

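Socs1 in WT mice had 1 sample far from the others. Replicate 7 was at 0.92 and the other 6 WT mice lay between 0.18 and 0.49, a gap of 0.584 of the group's range, above the 95% critical value of Dixon's test. This was 1 of 24 groups of 7 mice examined (12 probes in both genotypes), and chance alone marks about 1 in 20 groups. Each group held arrays of both scan days, and Socs1 was 0.41 higher on scan day 2, when WT replicate 7 was scanned. On that day Socs1 ranged from 0.34 to 0.83 in Sting gt/gt mice.

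The genotype difference of 3 of 12 probes differed between the scan days by exact permutation within scan days. The difference on scan day 2 minus that on scan day 1 was 0.59 on the log2 scale for the brighter Stat3 probe (exact permutation p = 0.02), 0.57 for the dimmer Stat5a probe (exact permutation p = 0.00429) and 0.33 for the Stat5b probe (exact permutation p = 0.0314). The p-values are not adjusted over the 12 probes. Such differences were common on these arrays: by limma, the interaction passed an unadjusted p under 0.05 for 4585 of 24908 genes (18.4%). A share over all probes by exact permutation is not given here.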

How the results depend on the processing

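Over all 14 arrays the count of genes past the threshold was 882, and 1928 in the series table, 4419 with arrays weighted and a trend on intensity, 1803 with scan day as a term, 439 with slide as a random block, 1408 with the replicate block, and 494 to 1963 with 1 array left out (lowest without Sting gt/gt replicate 6, highest without Sting gt/gt replicate 1). Of the 9 genes 2 passed with array weights and 0 under each other setting, the replicate block included. Scan day 1 gave 595 genes without scaling and 506 to 1557 with 1 array left out. Of the 9 genes, 1 passed there (Cish) with median centring, no scaling, normexp or the filter on all 14 arrays, and 0 to 1 with 1 array left out. On scan day 2, 0 passed after quantile normalization, without scaling or in the series table, 2 with median centring or the mean of probes, and 0 to 2 with 1 array left out. The interaction gave 3056 genes without scaling, and of the 9 genes 0 with quantile normalization or the series table, 1 without scaling or without a filter on dim probes, and 0 to 2 with 1 array left out.

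Among genotype differences, their interactions with scan day and correlations, signs turned only in values that missed the threshold. Over all arrays, array weights gave 0.0098 for Socs1 and 0.11 for Stat3, the mean of probes 0.017 for Stat3, slide as a random block -0.043 for Socs3, and slide as a fixed block, which rests on 5 arrays of scan day 1, -0.14 for Socs3 and -0.073 for Stat5b. With 1 array left out, Socs1 ran from -0.12 to 0.079, Stat3 from -0.059 to 0.073, Stat5a from -0.00026 to 0.28 and Stat6 from -0.069 to 0.039. On scan day 1 the mean of probes gave 0.034 for Socs2, quantile normalization 0.012 for Socs3, 0.032 for Stat5a and 0.019 for Stat6, normexp 0.029 for Socs3, and the authors' values 0.01, 0.042 and 0.023 for Socs3, Stat5a and Stat6. With 1 array left out there, Socs2 ran from -0.12 to 0.012, Socs3 from -0.17 to 0.17, Stat5a from -0.13 to 0.15, Stat5b from -0.14 to 0.0017 and Stat6 from -0.11 to 0.072. On scan day 2 Stat6 was 0.0087 with median centring and 0.035 with normexp, and with 1 array left out Cish ran from -0.19 to 0.11, Stat4 from -0.14 to 0.047 and Stat6 from -0.092 to 0.044. The interaction of Stat6 was -0.097 with quantile normalization, -0.00013 without scaling, -0.091 in the series table and -0.081 to 0.1 with 1 array left out. Correlations turned for Cish with Stat5b (scan day 1, 0.3 with median centring and 0.22 without scaling; scan day 2, -0.23 with quantile normalization, -0.0054 with normexp and -0.23 in the series table), Stat5a with Stat5b (0.054 on scan day 1 with median centring, -0.025 on scan day 2 without scaling), Socs2 with Stat5a (-0.017 on scan day 2) and Socs2 with Cish (0.077 on scan day 1), both without scaling. Apart from these, the scan-day shift of Stat5a turned from -1.11, which had passed an adjusted p under 0.05, to 0.19 in the series table. The cause was not tested. For the genotype difference and its interaction with scan day, no adjusted p of the 9 genes was under 0.05 in any of these fits.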
